A study of Xenopus laevis with 8 samples.

Results

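The 67 genes described here were expressed in control marginal zone explants of Xenopus laevis gastrulae and were much scarcer in control ectoderm explants. Injected Flag-Pinhead RNA raised them less than 1.5-fold in ectoderm explants when 0.5 CPM was added to each mean. The genes were chosen from the deposited counts by 3 values. The mean in control marginal zone had to reach 5 CPM, the count scaled to the library total. The ratio of that mean to the control ectoderm mean, with 0.5 CPM added to each, had to reach 8. The same ratio of Flag-Pinhead ectoderm to control ectoderm had to stay under 1.5. Of 35649 genes in the table, 187 met the level and the first ratio, and 79 of these met the limit on the Flag-Pinhead ratio. Of the 79, 12 were set aside by their symbols, namely both copies of gata4, gata5 and gata6, and gsc.S, hhex.L, nodal1.L, nodal2.L, sox17a.S and sox17b.1.S. With the same names set aside on the other side of the limit, 94 marginal zone genes were raised 1.5-fold or more by Flag-Pinhead RNA. Genes were set aside by their names in the deposited table, so 3 rows listed there by number, which RefSeq calls mixer.S, bix1.1.S and wnt8a.S, remain among the 94.

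The marginal zone is the equatorial ring of the early frog embryo, where maternal VegT, Nodal ligands and FGF signalling turn cells into mesoderm and, at its vegetal edge, into endoderm. Isolated ectoderm from the animal pole forms epidermis unless it receives such signals, so it serves as a test tissue for inducers. Pinhead is a secreted protein made in the marginal zone of the gastrula, and the study's title links it to the specification of mesoderm.

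Messenger RNA was sequenced from 8 samples, 2 in each group. PhSpMo marginal zone explants came from embryos given 40 ng of a Pinhead morpholino in each blastomere at the 4-cell stage, and were set against control marginal zone explants left untreated. Flag-Pinhead ectoderm explants came from embryos given 1.5 ng of Flag-Pinhead RNA, and were set against untreated control ectoderm explants. Because the controls were untreated, an effect of injection itself and an effect of the morpholino or RNA cannot be told apart. Both ectoderm groups are labelled stage 11. The labels of the marginal zone groups give stage 10.5, while the study's design text gives stage 11 for them, so tissue and stage cannot be told apart between explant types. Whether the samples within a group are from different clutches is not stated, so the p-values reflect only how these samples vary, and that variation could be technical.

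Sequencing depth lay between 12551618 and 19719311 counts a sample, and 1 count was worth 0.0507 to 0.0797 CPM. The targeted gene, pnhd.L, had 58.8 and 55.0 CPM in PhSpMo samples, against 93.7 and 89.2 CPM in control marginal zone samples. It had 31777 and 59876 CPM in Flag-Pinhead samples, where the injected RNA can be counted with it, and 16.1 and 18.3 CPM in control ectoderm samples. Counts of the 2 PhSpMo samples, as named, differed about as much as the 2 columns within another sample did. Their 4 columns agreed by the last digit of the column name and not by sample, so they were counted as 1 unit in every test. How close the 2 PhSpMo values of a gene lie is thus no measure of spread. Where both are said to lie below both controls, that is 1 unit against 2 samples. That unit has no spread of its own and was assumed to vary like the other groups. In the sums of marker genes, mesoderm markers had 1925 and 1994 CPM in PhSpMo samples, against 2390 and 2286 CPM in control marginal zone samples, over 13 rows of the table. Endoderm markers, 15 rows, had 553 and 558 CPM in PhSpMo samples, against 813 and 794 CPM in control marginal zone samples. Organizer markers, 9 rows, had 247 and 252 CPM in PhSpMo samples, against 295 and 303 CPM in control marginal zone samples. Epidermis markers, 12 rows, had 1093 and 1088 CPM in PhSpMo samples, against 1454 and 1427 CPM in control marginal zone samples. The sums of these 4 lists were thus lower in both PhSpMo samples than in both controls, but their rows did not all go that way. Among organizer markers, mean CPM in control marginal zone and PhSpMo was 61.7 and 24.7 for frzb.S, and 81.4 and 89.6 for not.L. Among mesoderm markers it was 316 and 197 for t.L, and 190 and 239 for eomes.L. Neural plate markers, 6 rows, had 1192 and 1244 CPM in PhSpMo samples, against 1187 and 1229 CPM in control marginal zone samples, and germ plasm markers, 5 rows, had 34.0 and 34.1 CPM in PhSpMo samples, against 27.6 and 29.5 CPM in control marginal zone samples. In control ectoderm the mesoderm sum was 31.9 and 34.2 CPM and the endoderm sum 5.98 and 4.16 CPM, so both stood far higher in every marginal zone sample, while the epidermis sum, at 2325 and 2349 CPM, was higher in control ectoderm. The part of these shifts in the changes below was not tested. In bulk explants, fewer cells of a type and less RNA per cell cannot be told apart.

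Of the 67 genes, 45 had a symbol in the table or in the RefSeq gene table, and 22 are known here only by a number. RefSeq lists 52 of the 67 as protein-coding, 1 as a long noncoding RNA (LOC108717894) and 1 as a pseudogene (LOC108706467), and 13 were not matched. Of 54 that could be placed on that assembly, 1 pair lay within 5 genes of each other, LOC108702035 and deptorl.L, which are 2 genes apart.

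In control marginal zone the genes had a lowest mean of 5.35 CPM, a median of 9.41 CPM and a highest mean of 426 CPM, and 35 of them were under 10 CPM. In Flag-Pinhead ectoderm their means lay between 0 and 10.4 CPM, with a median of 0.171 CPM. Control ectoderm gave means of 0 to 13.6 CPM, with a median of 0.133 CPM. These values chose the genes, and no test is given on them. Of the 67, 54 were under 1 CPM in Flag-Pinhead ectoderm and 53 in control ectoderm.

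The ratio of control marginal zone to control ectoderm had a median of 14.0 and a highest value of 104, in pcdh8.2.S. The ratio of Flag-Pinhead to control ectoderm ran from 0.617 to 1.50, with a median of 1.03. The Flag-Pinhead mean lay above the control ectoderm mean in 40 genes and below it in 22. The other 5, creg2.L, nmi.S, otoa.L, p2ry10.S and LOC108700132, had no count in any ectoderm sample. A Flag-Pinhead ratio near 1 rests on few counts for most of the set. In 37 genes each ectoderm group held under 10 counts, while the added 0.5 CPM stood for 7.15 to 9.86 counts of 1 ectoderm sample, and 10 genes had at least 50 counts in both groups. Set against control marginal zone, the Flag-Pinhead mean was 1.89% of it in the median gene and 10.4% in the highest, compared with a median of 19.0% over the 94 raised genes. The means behind these shares also chose both sets, so this contrast follows in part from the choice.

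The thresholds cut through a continuous range. On the level, rgs16.S at 5.35 CPM and LOC108715413 at 5.36 CPM lay just inside, and foxa2.L at 4.99 CPM and LOC108717156 at 4.75 CPM just outside. On the ratio to control ectoderm, LOC108700281 at 8.17 was kept, while gip.S at 7.87 and c8orf34.S at 7.71 were not. On the Flag-Pinhead ratio, slc6a8.S at 1.48 and cass4.L at 1.50 (under the limit before rounding) were kept, while mfsd4b.L and lefty.S, both at 1.51, were not.

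**Figure D1:**
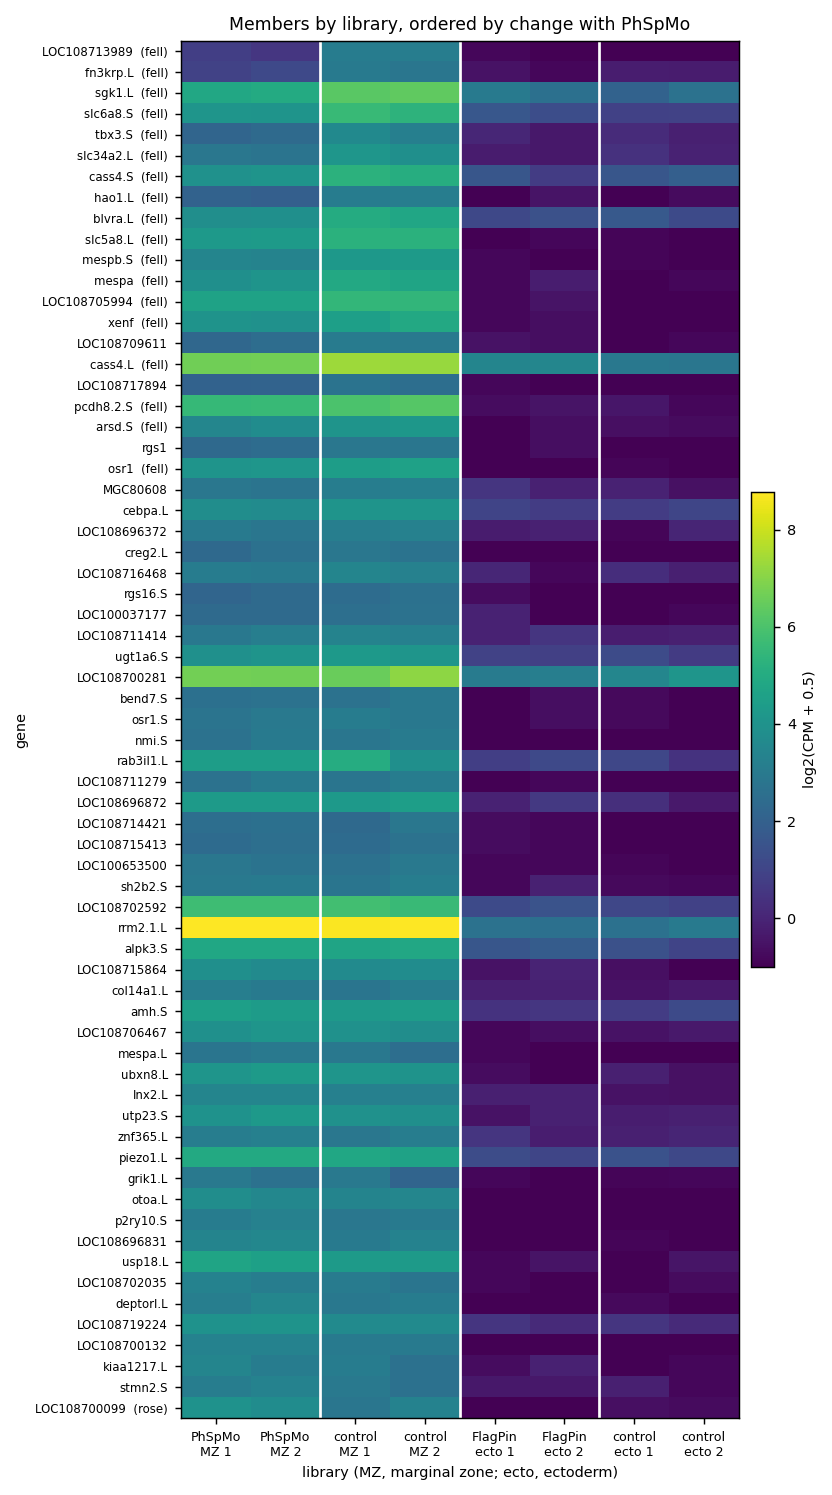
Heat map of 66 of the 67 genes (rows) in each of the 8 libraries (columns), coloured by log2(CPM + 0.5), with rows ordered by the change with PhSpMo from most negative at the top and the genes called fell or rose marked. The left 4 columns, PhSpMo and control marginal zone, are brighter than the 4 ectoderm columns in every row, as the choice of genes requires, and the difference between PhSpMo and control marginal zone is visible mainly in the upper rows.

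The PhSpMo samples played no part in the choice of genes, although the control marginal zone samples they were set against did. With PhSpMo, 19 of the 67 genes (28.4%) fell and 1 (1.49%) rose, at an adjusted p under 0.05 in edgeR's quasi-likelihood test with Benjamini-Hochberg adjustment over all 22241 genes tested. CPM values are scaled by library totals, while log2 fold changes use TMM factors, and fitted log2 fold changes lie slightly below those of the CPM. With the 8 libraries kept apart, the factors were 1.08 for both PhSpMo samples and 1.02 for both control marginal zone samples. The factors of the fit with PhSpMo as 1 unit are not given here. Over all genes tested, 10.5% fell and 8.22% rose. Among the 14523 genes of at least 5 CPM in control marginal zone, the shares were 14.2% and 10.5%. With scaling by column totals in place of TMM factors, 1740 of all genes fell and 2620 rose, against 2325 that fell and 1828 that rose with TMM, while 17 of the 67 fell and 1 rose. A fall of at least 2-fold was found in 11 of the 67 genes, against 2.27% of all genes. The median log2 fold change of the 67 was -0.24, against 0.00 over all genes tested. The other 47 genes did not pass the test, and 44 of the 67 had a log2 fold change within 0.5 of 0.

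Because the control marginal zone samples served both the choice and the test, the choice was also made with 1 of them and the test with the other. For 68 genes chosen with control sample 1, the median log2 fold change was -0.30 when PhSpMo was set against control sample 2. For 67 genes chosen with control sample 2, the median was -0.15 when PhSpMo was set against control sample 1. Medians over all genes in the same fits are not given here, so no background stands beside these values.

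On the CPM scale, all 4 PhSpMo columns lay below both control marginal zone samples in 26 of the 67 genes, against 16% of all genes tested, and above both in 8, against 26.9%. Each of the 19 fallen genes was among the 26. The summed level of the set was 1423 and 1444 CPM in PhSpMo samples, against 1713 and 1742 CPM in control marginal zone samples. It was 59.3 and 57.9 CPM in Flag-Pinhead ectoderm and 54.8 and 59.7 CPM in control ectoderm. Without rrm2.1.L, which supplied 30.2 to 30.3% of the PhSpMo sum and 24.6 to 24.8% of the control marginal zone sum, the sums were 991 and 1009 CPM in PhSpMo samples and 1293 and 1310 CPM in control marginal zone samples.

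Grouped by the known kind of their products, a grouping made after the values were seen, 5 of 8 transcription factor genes fell, 4 of 6 genes of metabolic enzymes, 3 of 6 genes of transporters, channels and receptors, and 3 of 5 genes of adhesion, scaffold and matrix proteins. Of 9 genes of kinases, G protein regulators, ubiquitin enzymes and other signalling proteins, 1 fell. For comparison, 28.4% of the whole set and 14.2% of all genes of at least 5 CPM fell. Of the 11 other genes with a symbol 1 fell, and of the 22 without a symbol 2 fell and 1 rose.

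Among transcription factors, the mesp genes encode basic helix-loop-helix factors of presomitic and cardiac mesoderm. The row mespa had 13.9 and 16.1 CPM in PhSpMo samples, against 29.1 and 25.8 CPM in control marginal zone samples, and fell by 0.94 on the log2 scale (SE 0.17, adjusted p = 0.000192). The row mespb.S had 10.3 and 9.85 CPM in PhSpMo samples, against 17.9 and 19.6 CPM in control marginal zone samples, and fell by 0.97 (SE 0.19, adjusted p = 0.000464). In both rows the PhSpMo samples lay below both controls. A further row, mespa.L, had 6.39 and 7.22 CPM in PhSpMo samples, against 7.01 and 5.34 CPM in control marginal zone samples, and its groups overlapped (log2 fold change 0.07, 95% interval -0.49 to 0.63). The mespa rows may share reads, so their split is uncertain. In ectoderm the 3 rows held 0 to 0.349 CPM with Flag-Pinhead RNA and 0 to 0.057 CPM without it. The row mespa.S, with a control marginal zone mean of 3.16 CPM, lay outside the set. It had 0.398 and 0.629 CPM with Flag-Pinhead RNA (6 and 9 counts) and no count in control ectoderm. With PhSpMo it did not pass the test (log2 fold change -0.74, SE 0.40).

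T-box gene tbx3 encodes a transcriptional repressor. Its copy tbx3.S had 4.07 and 4.65 CPM in PhSpMo samples, against 11.9 and 8.75 CPM in control marginal zone samples, and fell by 1.31 on the log2 scale (SE 0.27, adjusted p = 0.000875). The control samples were uneven, and both PhSpMo samples lay below the lower of them.

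The zinc-finger gene osr1 acts in mesendoderm and kidney precursors. The row osr1 had 15.9 and 17.2 CPM in PhSpMo samples, against 21.2 and 23.4 CPM in control marginal zone samples, and fell by 0.51 (SE 0.16, adjusted p = 0.0314). Its fall did not pass the test without control marginal zone sample 1 (adjusted p = 0.0866) or sample 2 (adjusted p = 0.251). In ectoderm it had no count in either Flag-Pinhead sample, and 0.0507 and 0 CPM in control samples. The row osr1.S had 6.32 and 7.15 CPM in PhSpMo samples, against 8.13 and 7.01 CPM in control marginal zone samples, and did not pass the test (log2 fold change -0.24, SE 0.27). For cebpa.L, which encodes a leucine-zipper factor of blood and liver cells, PhSpMo samples had 13.2 and 12.7 CPM and control marginal zone samples 16.3 and 16.5 CPM, a separation that missed the threshold (log2 fold change -0.42, SE 0.17, adjusted p = 0.105). It passed without Flag-Pinhead sample 1 (adjusted p = 0.0436) or sample 2 (adjusted p = 0.0445), which enter the fit through the shared estimate of spread.

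**Figure D2:**
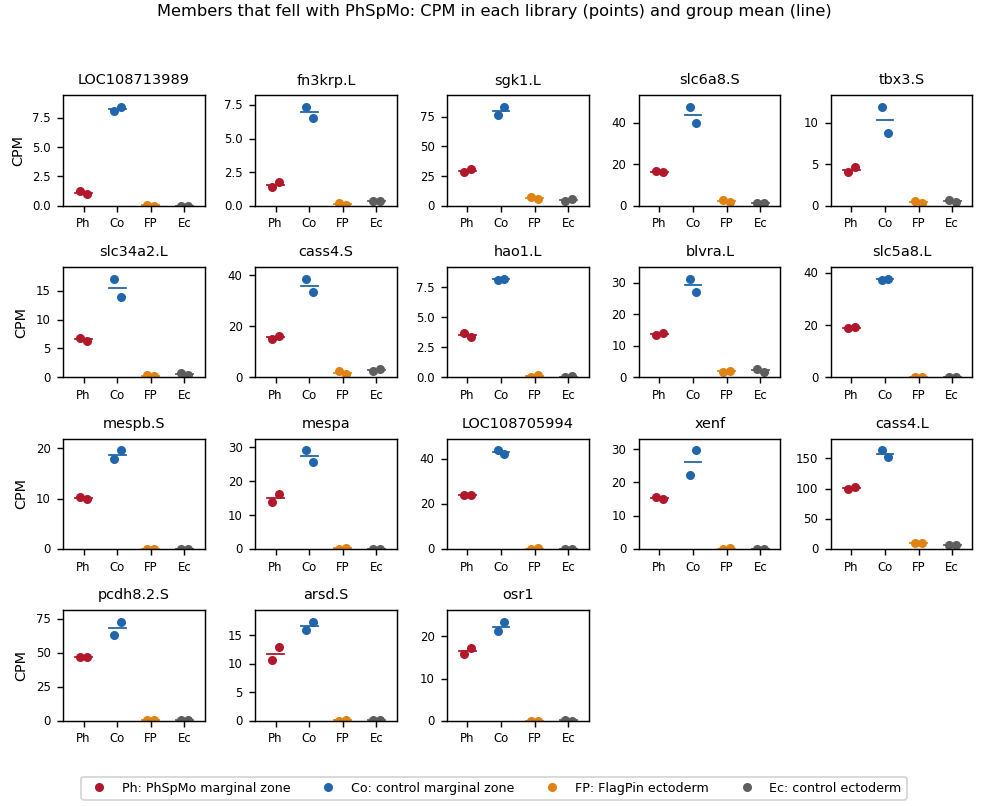
CPM of 18 of the 19 genes that fell with PhSpMo, 1 panel a gene, with points for the 2 libraries of each group and a line at the group mean; Ph is PhSpMo marginal zone, Co control marginal zone, FP Flag-Pinhead ectoderm and Ec control ectoderm, and each axis starts at 0. In every panel both PhSpMo points lie below both control marginal zone points and above all 4 ectoderm points.

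Of the membrane proteins, solute carriers made up all 3 of the genes that fell. The creatine transporter gene slc6a8.S (LOC108699985 in the table) had 16.6 and 16.3 CPM in PhSpMo samples, against 47.4 and 39.8 CPM in control marginal zone samples, and fell by 1.48 on the log2 scale (SE 0.15, adjusted p = 3.62e-08). The sodium-phosphate cotransporter gene slc34a2.L had 6.88 and 6.31 CPM in PhSpMo samples, against 17.1 and 13.9 CPM in control marginal zone samples, and fell by 1.3 (SE 0.21, adjusted p = 6.35e-05). The sodium-coupled monocarboxylate transporter gene slc5a8.L had 18.7 and 19.4 CPM in PhSpMo samples, against 37.2 and 37.7 CPM in control marginal zone samples, and fell by 1.05 (SE 0.15, adjusted p = 6.07e-06). In all 3 genes both PhSpMo samples lay below both controls. By single column, slc34a2.L had 5.35 and 4.85 CPM in the PhSpMo columns ending in 1, and 8.33 and 7.69 CPM in those ending in 2. Its log2 fold change was -1.67 with the columns ending in 1 only and -1.035 with those ending in 2 only. In ectoderm slc5a8.L was nearly without counts, with 0 and 0.0699 CPM in Flag-Pinhead samples and 0.0507 and 0 CPM in control samples. By contrast slc6a8.S sat just inside the limit, with 2.65 and 1.96 CPM in Flag-Pinhead samples and 1.37 and 1.43 CPM in control ectoderm samples.

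The mechanically gated channel gene piezo1.L had 30.1 and 30.3 CPM in PhSpMo samples, against 27.7 and 24.5 CPM in control marginal zone samples, and did not pass the test (log2 fold change 0.14, 95% interval -0.15 to 0.43). The kainate receptor subunit gene grik1.L (log2 fold change 0.17) and the receptor gene p2ry10.S (0.18) did not pass either.

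Among genes of cell contact and matrix, both homeologs of cass4 fell. Homeologs are the L and S copies left by the genome duplication of this species, and cass4 encodes a scaffold protein of the Cas family that acts at focal adhesions. The copy cass4.L had 99.8 and 103 CPM in PhSpMo samples, against 163 and 153 CPM in control marginal zone samples, and fell by 0.72 (SE 0.08, adjusted p = 1.5e-07). The copy cass4.S (LOC108702611) had 15.0 and 16.3 CPM in PhSpMo samples, against 38.6 and 33.3 CPM in control marginal zone samples, and fell by 1.27 (SE 0.17, adjusted p = 3.8e-06). In neither copy did the groups overlap, and the difference between the copies' changes was not tested. In ectoderm, cass4.L had 10.3 and 10.5 CPM with Flag-Pinhead RNA, against 7.05 and 6.56 CPM in controls, the highest Flag-Pinhead ratio of the set. Copy cass4.S had 2.52 and 1.19 CPM with Flag-Pinhead RNA, against 2.54 and 3.36 CPM in controls.

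Paraxial protocadherin genes, to which pcdh8.2.S (LOC108709782) belongs, encode adhesion molecules of cell sorting and convergent extension in the gastrula mesoderm. The gene had 46.6 and 47.2 CPM in PhSpMo samples, against 63.2 and 72.8 CPM in control marginal zone samples, and fell by 0.61 (SE 0.11, adjusted p = 0.000306). Both PhSpMo samples lay below the lower control. The fibril-associated collagen gene col14a1.L (log2 fold change 0.04) and otoa.L, an inner ear matrix protein gene in mammals (0.17), did not pass the test.

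Of the metabolic genes, fn3krp.L, which encodes a kinase that removes sugars bound to proteins, had 1.40 and 1.73 CPM in PhSpMo samples, against 7.33 and 6.55 CPM in control marginal zone samples. It fell by 2.21 on the log2 scale (SE 0.34, adjusted p = 3.12e-05), to a level well under both controls. The biliverdin reductase gene blvra.L had 13.6 and 14.2 CPM in PhSpMo samples, against 31.3 and 27.1 CPM in control marginal zone samples, and fell by 1.14 (SE 0.17, adjusted p = 1.18e-05).

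The gene hao1.L encodes glycolate oxidase, an enzyme of peroxisomes. It had 3.72 and 3.40 CPM in PhSpMo samples, against 8.13 and 8.22 CPM in control marginal zone samples, and fell by 1.27 (SE 0.31, adjusted p = 0.0043). Without control marginal zone sample 2 its adjusted p was 0.0641. The arylsulfatase gene arsd.S had 10.7 and 12.9 CPM in PhSpMo samples, against 15.9 and 17.4 CPM in control marginal zone samples, and fell by 0.57 (SE 0.19, adjusted p = 0.0325). That fall was near the threshold. Its log2 fold change was -0.63 without control marginal zone sample 1, -0.51 without sample 2, and -0.57 without either control ectoderm sample in turn. It did not pass the test in any of these fits. With all libraries kept, its adjusted p was 0.0642 in edgeR with scaling by column totals and 0.367 with DESeq2. The glucuronosyltransferase gene ugt1a6.S did not pass the test (log2 fold change -0.29, SE 0.17).

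The gene rrm2.1.L, whose symbol is that of the small subunit of ribonucleotide reductase, the enzyme that makes DNA precursors, showed the narrowest interval of the set. It had 431 and 436 CPM in PhSpMo samples, against 421 and 432 CPM in control marginal zone samples, a log2 fold change of -0.05 with a 95% interval of -0.19 to 0.09. In ectoderm it had 5.84 and 5.66 CPM with Flag-Pinhead RNA, against 5.73 and 7.36 CPM in controls. The groups overlapped in both tissues.

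Of the signalling genes, sgk1.L fell. It encodes a serum- and glucocorticoid-induced kinase that regulates ion channels and transporters. Its level was 28.5 and 30.9 CPM in PhSpMo samples, against 76.5 and 83.2 CPM in control marginal zone samples, and it fell by 1.50 on the log2 scale (SE 0.13, adjusted p = 5.76e-09). In ectoderm it had 7.63 and 5.59 CPM with Flag-Pinhead RNA, against 3.75 and 5.99 CPM in controls, and these groups overlapped.

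The 8 other signalling genes did not pass the test, among them regulators of G protein signalling, the anti-Müllerian hormone gene amh.S and the gene of the ISG15 protease, usp18.L. The gene usp18.L had 25.7 and 23.2 CPM in PhSpMo samples, against 19.5 and 19.7 CPM in control marginal zone samples (log2 fold change 0.24, 95% interval -0.11 to 0.59). For alpk3.S, an alpha-kinase gene of heart muscle, PhSpMo samples had 27.4 and 27.6 CPM and control marginal zone samples 25.8 and 28.1 CPM (log2 fold change -0.05, SE 0.14). The PhSpMo samples of rab3il1.L, at 21.3 and 21.1 CPM, lay between the control marginal zone samples, at 32.3 and 14.0 CPM. Its log2 fold change was -0.19 (adjusted p = 0.697) with both controls, 0.52 (adjusted p = 0.152) without control sample 1 and -0.68 (adjusted p = 0.0311) without control sample 2, so 1 library decides its direction.

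Of the other genes with a symbol, xenf fell. It had 15.7 and 14.9 CPM in PhSpMo samples, against 22.3 and 29.6 CPM in control marginal zone samples (log2 fold change -0.84, SE 0.17, adjusted p = 0.00084), and its adjusted p was 0.0734 without control sample 2. Among the 10 others, the microtubule regulator stmn2.S (log2 fold change 0.39, SE 0.26) and the ribosome assembly factor utp23.S (0.13, SE 0.17) did not pass the test.

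Of the genes known only by a number, LOC108713989 had the largest fall of the 67. It had 1.26 and 0.971 CPM in PhSpMo samples, against 8.13 and 8.42 CPM in control marginal zone samples, and fell by 2.96 on the log2 scale (SE 0.36, adjusted p = 1.38e-06). The gene LOC108705994 had 24.1 and 24.1 CPM in PhSpMo samples, against 43.8 and 42.3 CPM in control marginal zone samples, and fell by 0.91 (SE 0.13, adjusted p = 1.8e-05). Neither had a count in control ectoderm.

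The gene that rose, LOC108700099, had 15.2 and 12.9 CPM in PhSpMo samples, against 6.61 and 9.55 CPM in control marginal zone samples (log2 fold change 0.71, SE 0.21, adjusted p = 0.02). Without control sample 1 its adjusted p was 0.252. Neither LOC108702592, with 53.0 and 52.9 CPM in PhSpMo samples against 55.8 and 49.0 CPM in control marginal zone samples, nor LOC108700281, with 103 and 100 CPM in PhSpMo samples against 92.4 and 137 CPM in control marginal zone samples, passed the test. The uneven controls of LOC108700281 decided its value, which was -0.26 (adjusted p = 0.241) with both, -0.51 (adjusted p = 0.0238) without control sample 1 and 0.06 (adjusted p = 0.882) without control sample 2.

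Of the 47 genes that did not pass the test, 42 had a 95% interval within a 2-fold change in either direction, and 13 had one within 1.5-fold.

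**Figure D3:**
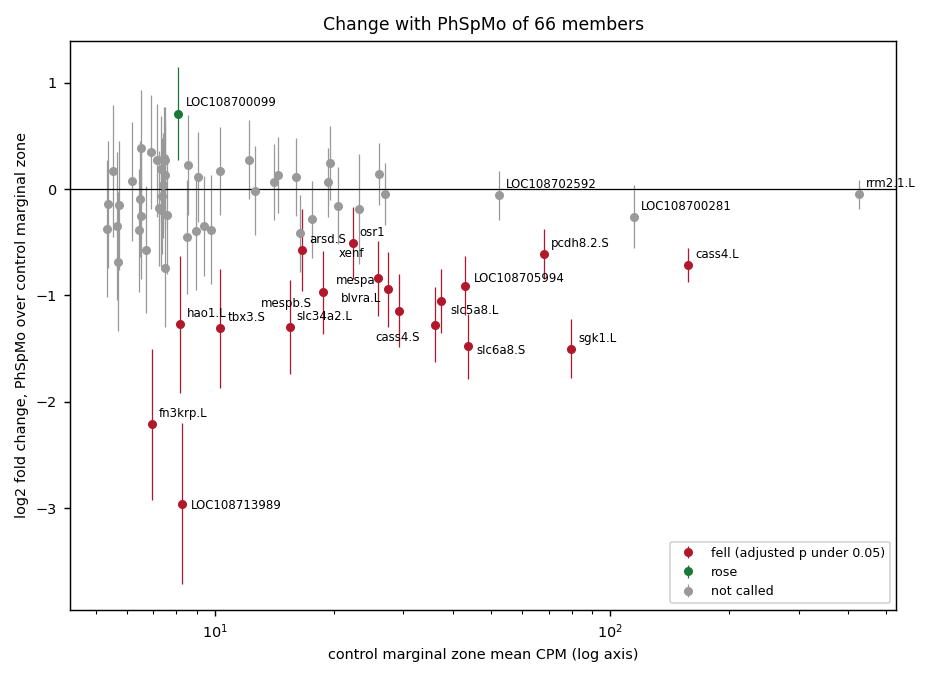
Log2 fold change of PhSpMo over control marginal zone (vertical axis, bars are 95% intervals from the fit) against the control marginal zone mean in CPM (horizontal, log axis) for 66 of the 67 genes, coloured by whether they fell, rose or did not pass the test. Intervals are wider at low levels, and most genes of at least 20 CPM fell.

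The share of calls differed by level. Among the 67, 4 of 35 genes under 10 CPM in control marginal zone fell (11.4%), 4 of 14 from 10 to under 20 CPM (28.6%), and 11 of 18 of at least 20 CPM (61.1%). Over all genes the shares that fell were 7.18% from 5 to under 10 CPM, 8.28% from 10 to under 20 CPM and 17.8% at 20 CPM or more.

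Flag-Pinhead RNA raised 94 marginal zone genes chosen by the same level and ratio to ectoderm. With PhSpMo, 62 of these fell (66.0%) and 5 rose, with a median log2 fold change of -0.68. Within ranges of level, 9 of 16 raised genes under 10 CPM fell (56.2%), 9 of 15 from 10 to under 20 CPM (60.0%) and 44 of 63 of at least 20 CPM (69.8%). Levels were not matched within a range. In the last range the highest mean was 638 CPM (vegt.L) among the 94 and 426 CPM (rrm2.1.L) among the 67. The shares of the 67 and of the 94 were 28.4% and 66.0% over all levels. By level they were 11.4% and 56.2% under 10 CPM, 28.6% and 60.0% from 10 to under 20 CPM, and 61.1% and 69.8% at 20 CPM or more. Median log2 fold changes of the 67 and of the 94 were -0.18 and -0.82 under 10 CPM. They were 0.03 and -0.72 from 10 to under 20 CPM, and -0.66 and -0.65 at 20 CPM or more. Both sets were set against the same control marginal zone samples that chose them, and the differences between their shares and medians were not tested. Of the 12 genes set aside by symbol below the limit, which include Nodal, Gata and Sox17 genes, 10 fell, with a median log2 fold change of -1.22. Genes set aside by symbol above the limit had log2 fold changes from -2.12 (cer1.S) to 0.10 (bix1.1.L).

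Genes set aside by symbol, on either side of the limit, were left out of the correlations between the Flag-Pinhead ratio and the log2 fold change with PhSpMo. Spearman's rho was -0.06 across the 67 genes and -0.232 across the 161 remaining genes on both sides of the limit. These are descriptions across genes that share libraries and counts, and many of the ratios rest on few counts. Within the 67 the choice held the ratio under 1.5, so the low rho there says little about a relation. The 161 genes join sets that differ in level. Of 37 genes raised 1.5-fold to under 4-fold, 22 fell (59.5%), and of 57 raised at least 4-fold, 40 fell (70.2%). Medians were -0.68 in both.

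**Figure D4:**
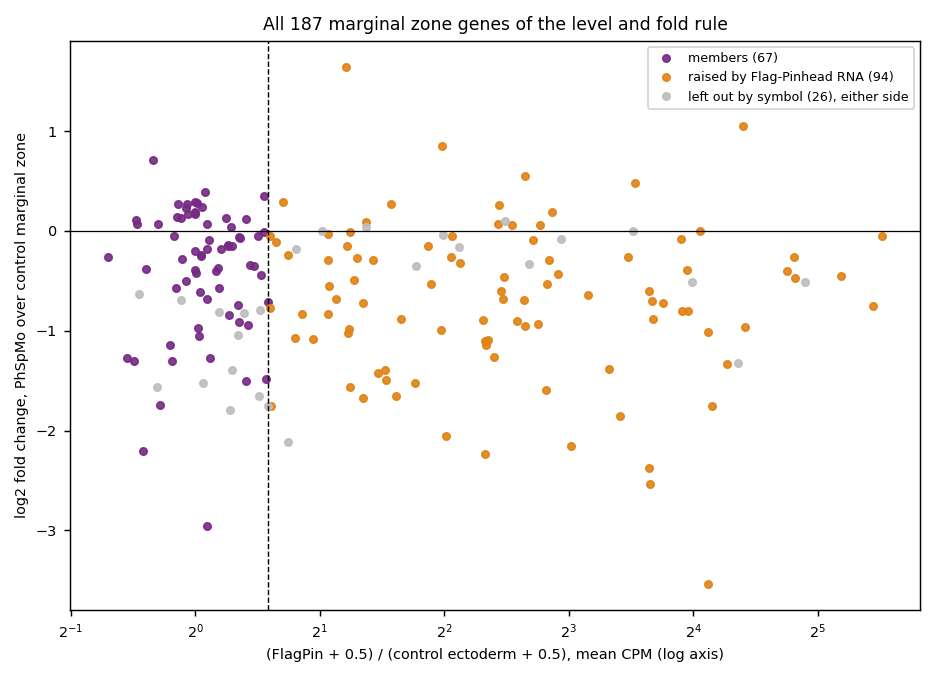
Log2 fold change of PhSpMo over control marginal zone (vertical) against the ratio of Flag-Pinhead to control ectoderm with 0.5 CPM added (horizontal, log axis) for the 187 marginal zone genes, with the limit of 1.5 as a dashed line. Over all levels, the 67 genes of the set, left of the line, have a median of -0.24 and the 94 raised genes one of -0.68. Among those of at least 20 CPM in control marginal zone the medians are -0.66 and -0.65. The 12 genes set aside by symbol that also lie left of the line have a median of -1.22.

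Lists of pathway genes were set beside the 67. Because Nodal, Mix, Bix, Gata, Sox17 and Wnt genes and gsc, cer1, chrd and hhex were set aside by name, the counts of regulators in the set are partly fixed by that choice. Of 16 genes of the list of T-box and mesoderm transcription factors that met the level and the ratio to ectoderm, 12 were raised by Flag-Pinhead RNA, and the other 4, mespa, mespa.L, mespb.S and tbx3.S, are in the set. The list of endoderm regulators and markers had 3 in the set, osr1, osr1.S and slc5a8.L, and 3 among the raised genes. The lists of organizer genes, FGF signalling, Hox and Cdx genes, and Notch and Hes genes had none in the set and 10, 10, 4 and 4 among the raised genes. The list of cell movement, adhesion and matrix genes had pcdh8.2.S in the set and 7 among the raised, and that of heart and blood precursors had cebpa.L alone. The TGF-beta, germ plasm and Wnt modulator lists had none in the set, with 3, 2 and 1 raised genes.

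For the counts that follow, 10.5% of all genes tested fell with PhSpMo and 8.22% rose, and 17.8% of genes of at least 20 CPM fell. In the whole table, 26 of 56 tested genes of the T-box and mesoderm list fell with PhSpMo (median log2 fold change -0.75), as did 10 of 19 of the endoderm list (median -0.82), 15 of 44 of the organizer list (median -0.44) and 13 of 22 of the Hox and Cdx list (median -1.40). In the FGF list 17 of 43 fell and 4 rose, in the TGF-beta list 12 of 37 fell and 4 rose, and in the movement, adhesion and matrix list 38 of 88 fell and 7 rose. In the Notch and Hes list 14 of 43 fell and 3 rose, in the Wnt modulator list 15 of 47 fell and 2 rose, in the germ plasm list 11 of 37 fell and 7 rose, and in the heart and blood list 2 of 29 fell and 4 rose.

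Of the 40 genes of the set with an L or S copy in their symbol, the other homeolog had no row in the table under its symbol for 16, was under 5 CPM in control marginal zone for 16, and failed the ratio to ectoderm for 3. For 3 it was raised by Flag-Pinhead RNA, and the remaining 2 are the cass4 pair. The copies named next were picked after their values were seen, and homeologs can share reads, so a split between them is uncertain. Differences between copies were not tested.

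The 3 whose other copy met the level and the ratio to ectoderm and was raised by Flag-Pinhead RNA were sh2b2.S, pcdh8.2.S and tbx3.S. The ratio of sh2b2.L was 1.63, on 10 and 12 counts with Flag-Pinhead RNA against 5 and 5 in control ectoderm. In ectoderm, tbx3.L had 0.929 and 1.05 CPM with Flag-Pinhead RNA, against 0.152 and 0.057 CPM in controls, while tbx3.S had 0.531 and 0.279 CPM with Flag-Pinhead RNA, against 0.659 and 0.399 CPM in controls. With PhSpMo, tbx3.L had 7.58 and 9.64 CPM, against 11.0 and 8.82 CPM in control marginal zone, and did not pass the test (log2 fold change -0.27, adjusted p = 0.466), while tbx3.S fell by 1.31. For the protocadherin, pcdh8.2.L had 4.51 and 3.56 CPM with Flag-Pinhead RNA, against 0.203 and 0.513 CPM in control ectoderm, and pcdh8.2.S had 0.133 and 0.210 CPM with Flag-Pinhead RNA, against 0.254 and 0.057 CPM in control ectoderm. With PhSpMo, pcdh8.2.L had 55.8 and 53.5 CPM, against 129 and 119 CPM in control marginal zone, and fell by 1.26 (SE 0.10, adjusted p = 6.77e-10), while pcdh8.2.S fell by 0.61.

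Other copies differed in their spread over tissues. The ribosome assembly gene utp23.L had 68.0 and 63.5 CPM in PhSpMo samples and 88.5 and 85 CPM in control marginal zone samples, and 92.9 and 92.5 CPM in Flag-Pinhead and 98.1 and 92.7 CPM in control ectoderm, and it fell by 0.47 with PhSpMo (adjusted p = 6.12e-05). It was present in every group. The copy piezo1.S was also present in every group, with 13.0 and 12.3 CPM in PhSpMo samples and 11.2 and 14.3 CPM in control marginal zone samples, and a mean of 12.1 CPM in Flag-Pinhead and 14.6 CPM in control ectoderm samples. It did not pass the test with PhSpMo (log2 fold change -0.10). The copies sgk1.S and slc6a8.L fell with PhSpMo as their partners did, with log2 fold changes of -1.07 (adjusted p = 0.0006) and -2.26 (adjusted p = 0.0151). The value of slc6a8.L (SE 0.65) rests on 10 and 2 counts in PhSpMo samples, against 25 and 28 in control marginal zone samples. The copy fn3krp.S had 2.74 and 3.40 CPM in PhSpMo samples, against 1.91 and 1.74 CPM in control marginal zone samples, and did not pass the test (log2 fold change 0.68, adjusted p = 0.19), while fn3krp.L fell by 2.21.

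**Figure D5:**
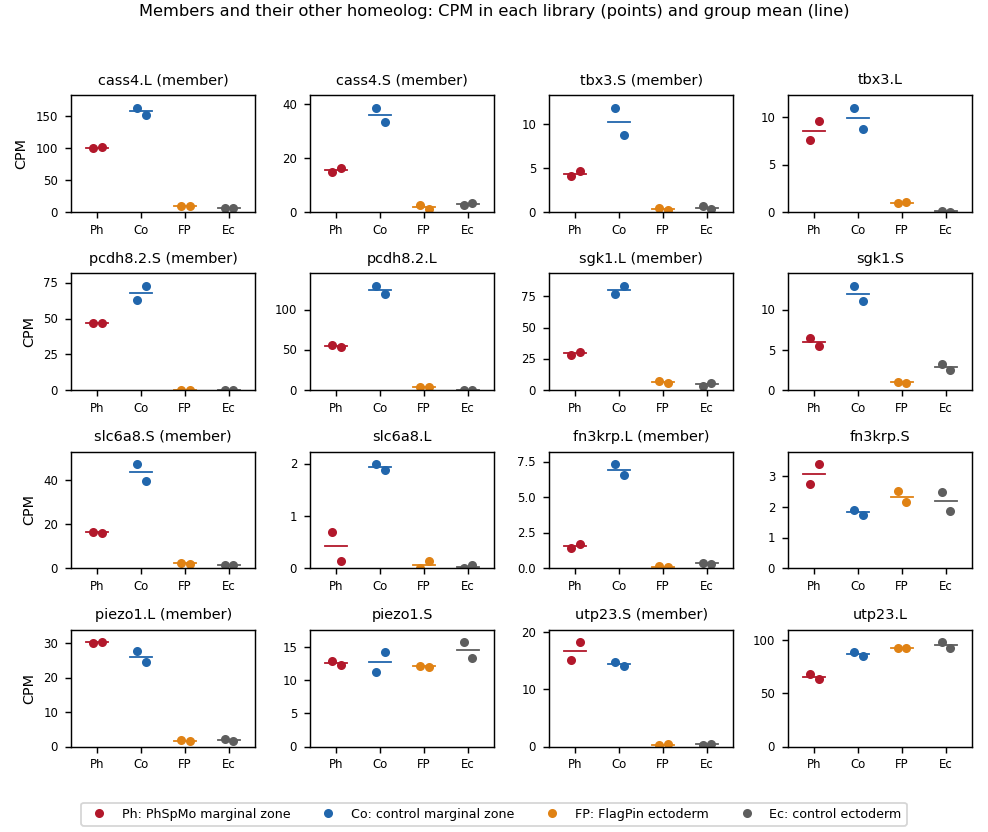
CPM of 8 genes of the set beside their other homeolog, with points for the 2 libraries of each group and a line at the group mean; Ph is PhSpMo marginal zone, Co control marginal zone, FP Flag-Pinhead ectoderm and Ec control ectoderm, and each axis starts at 0. Copies piezo1.S and utp23.L stand well above 0 in all 4 groups, while piezo1.L and utp23.S are near 0 in ectoderm, as their choice requires.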

How the data were processed

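Poly(A)-selected RNA was sequenced on a HiSeq2000, per the labels' protocols. The authors deposited raw counts per gene, without normalization, in 16 columns, 2 for each sample. CASAVA 1.8, HISAT2, SAMtools and HTSeq are named, per the submitters' processing notes. The build of the genome is not given in the sources, nor are the counting options. No strand marking is described, so an antisense gene's reads may be counted with those of its partner.

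Columns were assigned to samples by name (2 mistyped names to control marginal zone sample 1) and added. The row pnhd.L and LOC108706889 were left out of the totals behind CPM, except that the CPM values of pnhd.L itself used the full totals. Of 24313 LOC identifiers, 21071 were found in the RefSeq table of assembly Xenopus_laevis_v10.1 and 11186 were given its symbol. That table was used for names and neighbours only. No sequence is printed.

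Between replicates, the mean chi-square over genes of at least 50 counts was 1.43 for the PhSpMo samples, a value also seen when the columns of any other sample were compared (1.29 to 1.46), and 2.05, 11.9 and 2.27 for control marginal zone, Flag-Pinhead and control ectoderm. Within the PhSpMo samples the 2 columns gave 2.38 and 2.44. PhSpMo columns with the same last digit gave 1.30 and 1.36, and PhSpMo sums by last digit gave 3.41. The columns thus agreed by last digit and not by sample name, and could not be assigned to 2 samples. They were counted as 1 sample, which leaves 7 units.

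Counts were tested in edgeR 4.0.16 (R 4.3.3) with filterByExpr, TMM factors, a mean for each of the 4 groups, and its quasi-likelihood test. P-values were adjusted by Benjamini-Hochberg over 22241 genes, with a threshold of 0.05. SE is the log2 fold change over the square root of F. The fit was also run on simulated data, in which the PhSpMo unit was drawn with the same spread as the other groups. That simulation cannot test the assumption that this unit varies like them. DESeq2 1.42.0 was an alternative.

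Same-numbered samples of different groups did not deviate together (correlations of -0.0209 to 0.0142), and no label pairs them. The genes named are the 10 with the highest control level, those past the test, those of the lists, homeolog pairs and the genes nearest each threshold. Other genes named for their role, and the role groups, were picked after values were seen. The set and all lists were chosen with earlier results of these data known. The values of 1 gene of the set are not reported here; it stays in every count.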

Additional observations from a re-analysis of the deposited data

How the results depend on the processing

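The count of the 67 genes that fell with PhSpMo, 19, was 16 with DESeq2, 17 with CPM by column totals, and 24 with marginal zone libraries only, the lowest and highest over the 17 other fits of the same 67 genes being 16 and 24. Leaving out 1 library gave 16 to 21. The count that rose, 1, was 0 with DESeq2 (0 at an unadjusted p under 0.05) and 0 in edgeR with the PhSpMo columns ending in 2 only, where 1 gene had an unadjusted p under 0.05. It was also 0 for genes chosen with control marginal zone sample 1 and tested against sample 2 (1 at an unadjusted p under 0.05), and 0 to 1 when a library was left out. Over all genes, DESeq2 called 1504 lower and 763 higher, and leaving out 1 library gave 1473 to 2926 lower and 998 to 2331 higher. With 8 libraries and the replicate number as a block, 21 of the 67 fell and 1 rose, and 3123 of all genes fell and 2370 rose; the numbers do not pair the samples. The size of the set was 44 with 1 CPM added in place of 0.5, 149 with a ratio to ectoderm of 4, 21 with a ratio of 16, 32 with a level of 10 CPM, and 60 to 68 without 1 library. Its size with other Flag-Pinhead limits or with TMM-adjusted CPM is not given here. With the 8 libraries kept apart, TMM factors were 0.910 and 0.916 for Flag-Pinhead and 0.992 and 0.989 for control ectoderm. TMM scaling would thus raise Flag-Pinhead ratios that rest on counts, and cass4.L and slc6a8.S lay nearest the limit. Of the 20 genes past the test, 15 kept their call and direction in all 17 other fits, and hao1.L, xenf, arsd.S, osr1 and LOC108700099 lost it in at least 1. With DESeq2 the adjusted p was 0.10 for hao1.L, 0.367 for arsd.S, 0.356 for osr1 and 0.395 for LOC108700099. None of the results recomputed changed direction among genes past the test. Of the genes that did not pass, LOC108709611, LOC108717894, cebpa.L, rgs1, LOC108700281 and rab3il1.L passed in at least 1 other fit. The causes were not tested. The alternatives on PhSpMo columns ending in 1 or 2 only, on column totals and on keeping pnhd in the totals were chosen after seeing the data. Depth limits the ectoderm ratios, since 37 of the 67 genes had under 10 counts in each ectoderm group.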
